A study of Homo sapiens with 6 samples.

Results

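The 45 genes described here encode kinetochore proteins, spindle checkpoint proteins and proteins of the mitotic spindle. They were chosen by name from textbook roles, with earlier results of these data known. The kinesins other than the kinetochore motor CENPE and the CDK1-class kinases were left out. All 45 were found among the 20308 genes of the deposited tables. They were measured by RNA sequencing in LNCaP-AI cells, an established line of castration-resistant prostate cancer that descends from LNCaP and grows without androgen. The cells carried a lentiviral short hairpin against METTL1, the enzyme that places N7-methylguanosine on tRNA and other RNAs (shMETTL1, 3 libraries), or a scrambled hairpin (shscramble, 3 libraries), and all 6 libraries were labelled as under androgen deprivation. The methods of the study call its data in general biological replicates, but nothing ties these libraries to separate cultures, so p-values measure the spread between them, which may be technical.

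The kinetochore is the protein assembly built on the centromere of each chromosome. Its inner layer binds centromeric chromatin, its outer layer grips spindle microtubules, and the spindle checkpoint holds back anaphase while any kinetochore is unattached. Most of these genes are transcribed mainly in late S phase, G2 and mitosis, so their RNA level in a bulk culture follows both the share of cells in those phases and the RNA that each such cell holds.

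Many promoters of late cell cycle genes carry a CHR element (cell cycle genes homology region), bound by the DREAM and MYB-MuvB complexes, and CCAAT boxes, bound by NF-Y. These motifs were looked for in RefSeq promoters of build GRCh38.p14, from 250 bases before to 50 bases after the gene start, which were given for 38 of the 45 genes. A CHR match was TTTGAA or TTCGAA and a CCAAT match was CCAAT, each on both strands. A CHR match was held by 26 of 38 promoters (68.4%), against 10.8% of 9470 promoters of genes tested in the same libraries and 16.6% of all 27305 promoters. Within 50 bases of the start the shares were 22 of 38 (57.9%) against 3.09% and 5.05%. A CCAAT match was held by 29 of 38 (76.3%), against 37.3% of the promoters of genes tested and 35.7% of all promoters, and both motifs by 21 of 38 (55.3%), against 4.7% and 6.58%. Of the 67 CCAAT matches, 49 lay between 20 and 120 bases upstream of the start, and in 2 genes a CHR and a CCAAT match shared a base. A match is a description of these letters and not a measured binding site.

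The genes that fell after METTL1 knockdown and those that did not pass the test had shares of motif matches that lay near each other, a difference that was not tested. A CHR match was held by 11 of 15 promoters of genes that fell (73.3%) and by 15 of 23 promoters of the others (65.2%), and both motifs by 9 of 15 (60.0%) and 12 of 23 (52.2%). The promoters printed here are those of the 4 genes that fell with the smallest p and had a promoter sequence, that of CENPE, which fell and held neither motif, and that of CDCA8, which held both and did not pass the test. They are written 5′ to 3′ on the strand of the gene, with motif matches in capitals (ATTGG is CCAAT on the other strand, and TTCAAA is TTTGAA on the other strand). HMMR lies at chr5:163460382-163460681 (plus strand), CENPF at chr1:214602945-214603244 (plus), NUSAP1 at chr15:41332631-41332930 (plus), ASPM at chr1:197146620-197146919 (minus), CENPE at chr4:103198294-103198593 (minus) and CDCA8 at chr1:37692266-37692565 (plus).
HMMR: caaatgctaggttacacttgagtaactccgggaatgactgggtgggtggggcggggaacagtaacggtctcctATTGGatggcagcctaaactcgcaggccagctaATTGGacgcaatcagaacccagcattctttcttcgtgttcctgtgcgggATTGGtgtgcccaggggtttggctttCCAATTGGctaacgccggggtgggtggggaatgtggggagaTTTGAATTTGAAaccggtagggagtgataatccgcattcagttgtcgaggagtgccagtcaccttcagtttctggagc
CENPF: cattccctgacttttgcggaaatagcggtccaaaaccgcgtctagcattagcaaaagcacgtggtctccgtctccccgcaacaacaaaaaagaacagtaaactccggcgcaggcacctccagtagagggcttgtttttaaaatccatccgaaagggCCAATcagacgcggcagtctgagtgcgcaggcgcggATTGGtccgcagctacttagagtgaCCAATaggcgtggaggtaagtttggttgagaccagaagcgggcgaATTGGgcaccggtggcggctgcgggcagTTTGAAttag
NUSAP1: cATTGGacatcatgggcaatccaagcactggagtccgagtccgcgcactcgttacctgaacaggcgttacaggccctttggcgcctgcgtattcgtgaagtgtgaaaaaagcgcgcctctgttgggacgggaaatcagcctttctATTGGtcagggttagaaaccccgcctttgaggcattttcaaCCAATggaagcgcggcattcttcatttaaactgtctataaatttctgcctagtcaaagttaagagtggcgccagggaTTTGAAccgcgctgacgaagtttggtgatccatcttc
ASPM: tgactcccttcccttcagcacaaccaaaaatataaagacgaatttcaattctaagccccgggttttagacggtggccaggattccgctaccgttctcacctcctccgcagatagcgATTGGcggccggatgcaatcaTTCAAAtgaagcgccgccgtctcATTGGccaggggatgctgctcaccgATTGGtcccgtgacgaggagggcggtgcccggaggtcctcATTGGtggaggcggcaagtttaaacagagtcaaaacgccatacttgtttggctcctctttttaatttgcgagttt
CENPE: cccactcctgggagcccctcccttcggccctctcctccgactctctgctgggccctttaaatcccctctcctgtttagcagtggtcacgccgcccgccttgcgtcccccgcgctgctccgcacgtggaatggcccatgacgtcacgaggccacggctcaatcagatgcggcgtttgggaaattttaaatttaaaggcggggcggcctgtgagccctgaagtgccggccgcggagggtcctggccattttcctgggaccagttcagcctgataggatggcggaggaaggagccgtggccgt
CDCA8: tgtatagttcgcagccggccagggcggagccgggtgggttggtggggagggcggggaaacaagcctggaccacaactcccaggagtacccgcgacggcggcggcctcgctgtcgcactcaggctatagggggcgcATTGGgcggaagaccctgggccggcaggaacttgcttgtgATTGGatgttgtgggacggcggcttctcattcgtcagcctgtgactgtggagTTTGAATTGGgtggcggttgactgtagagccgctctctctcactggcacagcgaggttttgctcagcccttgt

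HMMR carried a pair of adjoining CHR matches just upstream of its start and 5 CCAAT matches. CENPF, NUSAP1 and ASPM each carried 1 CHR match, which lay after the start in CENPF and NUSAP1 and upstream of it in ASPM, with 4, 3 and 4 CCAAT matches. CDCA8 carried 1 CHR match that shared its last base with a CCAAT match. Besides CENPE, the promoters of CKAP2, DSN1 and CENPI held neither motif, and none of those 3 genes passed the test.

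**Figure D1:**
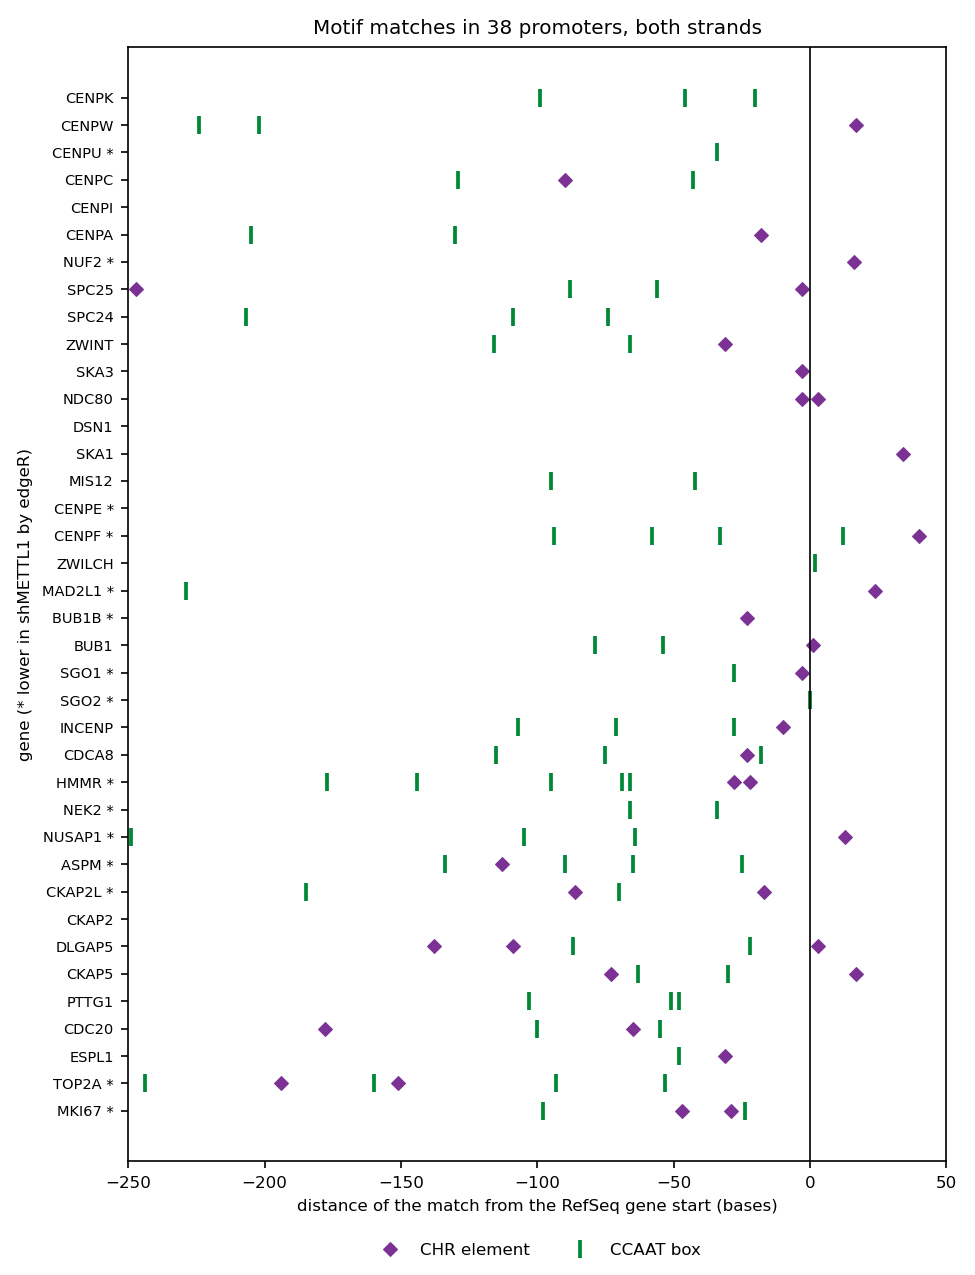
Position of each CHR match (cell cycle genes homology region) and CCAAT match in the promoters of 38 genes, in bases from the RefSeq gene start; asterisks mark genes that fell in shMETTL1 cells by edgeR. The matches cluster around and just upstream of the start: 25 of 36 CHR matches lay within 50 bases of it and 64 of 67 CCAAT matches lay before it.

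The 6 libraries had near-equal totals of 3389897 to 3604835 estimated counts, but in each library about 90% of the values above 0 were whole multiples of 1 step. Read as whole fragments, the depth was 2650766 to 3595521 fragments in shMETTL1 libraries and 3627512 to 4085354 in shscramble libraries, so the knockdown libraries were all shallower. METTL1 itself had 9.5, 28.5 and 20.5 estimated counts in shMETTL1 libraries, against 36.4, 48.6 and 65.1 in shscramble libraries (log2 fold change -1.36 ± 0.36 SE, edgeR adjusted p = 0.0309, 38.9% of shscramble). On FPKM it missed the threshold (-0.93, limma adjusted p = 0.127), and its edgeR adjusted p was 0.137 without shMETTL1 replicate 1, 0.0973 without shMETTL1 replicate 3, 0.172 without shscramble replicate 3 and 0.0118 to 0.0361 with any other library left out. All 10 markers of luminal prostate cells were detected, with a summed FPKM (fragments scaled by transcript length and by library depth) of 2097 to 2355 in shMETTL1 and 2610 to 2669 in shscramble libraries. Of 6 fibroblast markers DCN and LUM were at 0 in every library and the sum was 5.31 to 11.2 against 7.94 to 13.7. Of 5 blood and endothelial markers PTPRC and CD3E were at 0 in every library and the sum was 6.6 to 8.24 against 11.9 to 17.0, while 3 of 5 neuroendocrine markers were at 0 and the sum was 0.41 to 1.1 against 0.28 to 0.38. The part of depth and of these marker sums in the results was not tested. Over the genes that fell, shscramble replicate 2 lay nearer to the knockdown libraries than the other shscramble libraries did, though not in every role. In the anaphase genes it was the highest shscramble library (mean log2 level relative to each gene's own mean 0.236, against -0.06 and -0.004). Counts of genes are also given without it. Because it was singled out on these genes' own values, larger counts without it are no separate support, and calls over all genes rose too.

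To ask how METTL1 knockdown moved the mitotic machinery, the 3 shMETTL1 libraries were compared with the 3 shscramble libraries. Of the 45 genes, 17 fell, none rose and 28 did not pass the test (edgeR quasi-likelihood test, Benjamini-Hochberg adjusted p under 0.05 over 11764 genes), a share of 37.8% lower where 3.71% of all genes tested were lower and 2.71% were higher (6.42% in either direction). Those that fell were CENPH and CENPU of the inner kinetochore, NUF2 and KNL1 of the outer kinetochore, CENPE and CENPF of the fibrous corona, BUB1B and MAD2L1 of the checkpoint, the shugoshins SGO1 and SGO2, the spindle genes HMMR, ASPM, NUSAP1, CKAP2L and NEK2, and the chromosome genes MKI67 and TOP2A. Their levels in shMETTL1 cells lay between 48.3% (HMMR) and 74.6% (MKI67) of the shscramble level. Because the list was chosen with earlier results of these data known, its shares are a description and not a test of the list. In a bulk culture, fewer cells in G2 and mitosis and less RNA per such cell cannot be told apart.

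The median log2 fold change of the 45 genes was -0.43, or 74.2% of the shscramble level, against -0.00 over all genes tested. It was negative in 40 of 45 genes (88.9%), against 50.2% of all genes tested. In 27 genes (60.0%) all 3 shMETTL1 libraries lay below all 3 shscramble libraries in counts scaled by library size, against 13.5% of all genes tested, and in 1 gene, CENPA, all lay above, against 12.6%. At an unadjusted p under 0.05 in edgeR, 28 of the 45 genes were lower, against 11.9% of all genes tested, and none was higher, against 10.5%. DESeq2 called the same number, 17 lower and none higher, with 3.79% of all genes tested lower and 2.66% higher. The thresholds that the study set for the METTL1 knockdown sequencing were a fold change above 1.5 with a p under 0.05. They were applied here to the fold change and unadjusted p of edgeR, not to the study's own values. By them 11 of the 45 were lower and none was higher, against 5.21% and 3.79% of all genes tested.

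The 45 genes together took 0.43%, 0.424% and 0.465% of the estimated counts in shMETTL1 libraries, against 0.617%, 0.555% and 0.62% in shscramble libraries. The groups did not overlap, and shscramble replicate 2 was the shscramble library nearest to the knockdown libraries. Over the 17 genes that fell, the mean log2 level relative to each gene's own mean was -0.32, -0.37 and -0.24 in shMETTL1 libraries, against 0.44, 0.10 and 0.39 in shscramble libraries. In 14 of the 17 genes shscramble replicate 2 was the lowest shscramble library. Without it, 24 of the 45 genes were lower in edgeR, with 9.71% of all genes tested lower and 8.76% higher.

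**Figure D2:**
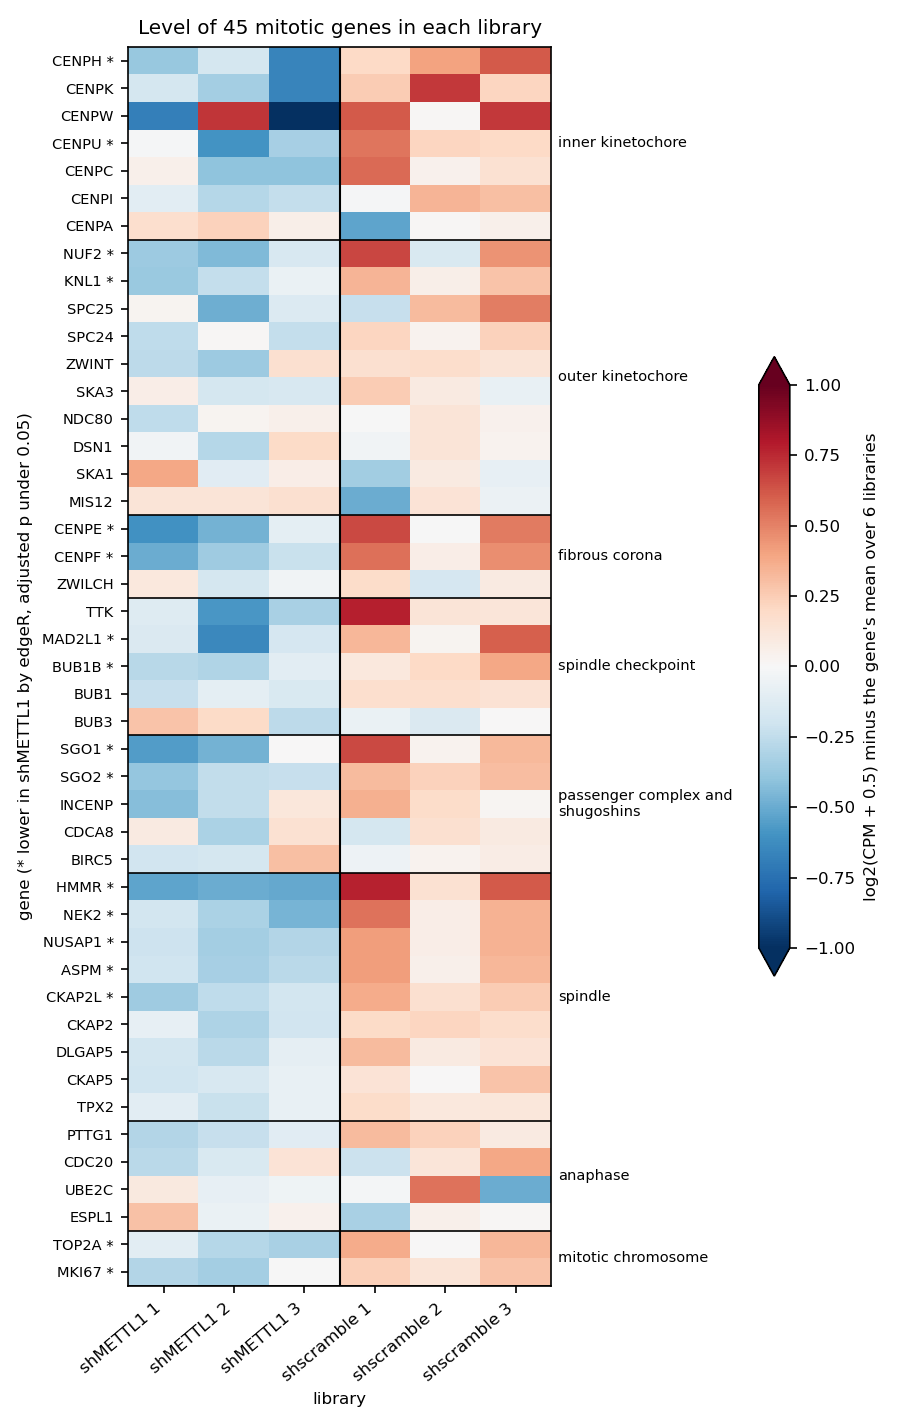
Level of each of the 45 genes in each library as log2(CPM + 0.5), CPM being the count scaled by library size, minus the mean of that gene over the 6 libraries, with colours saturating at the ends of the scale; genes are grouped by role and asterisks mark the 17 that fell. The 3 shMETTL1 columns are low and the 3 shscramble columns high for most genes, with shscramble replicate 2 paler than the other shscramble libraries in most of the genes that fell.

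By role, the median log2 fold change ran between -0.73 and -0.15, and differences between roles were not tested. The median was -0.62 for 7 inner kinetochore genes (2 fell), -0.24 for 10 outer kinetochore genes (2 fell), -0.73 for 3 genes of the fibrous corona (2 fell) and -0.46 for 5 checkpoint genes (2 fell). It was -0.36 for 5 genes of the chromosomal passenger complex and the shugoshins (2 fell), -0.53 for 9 spindle genes (5 fell), -0.15 for 4 anaphase genes (none fell) and -0.45 for the 2 chromosome genes (both fell). In all 9 spindle genes the shMETTL1 libraries lay below the shscramble libraries in counts scaled by library size, against 13.5% of all genes tested. The numbers that fell are to be read against the 3.71% of all genes tested that were lower.

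**Figure D3:**
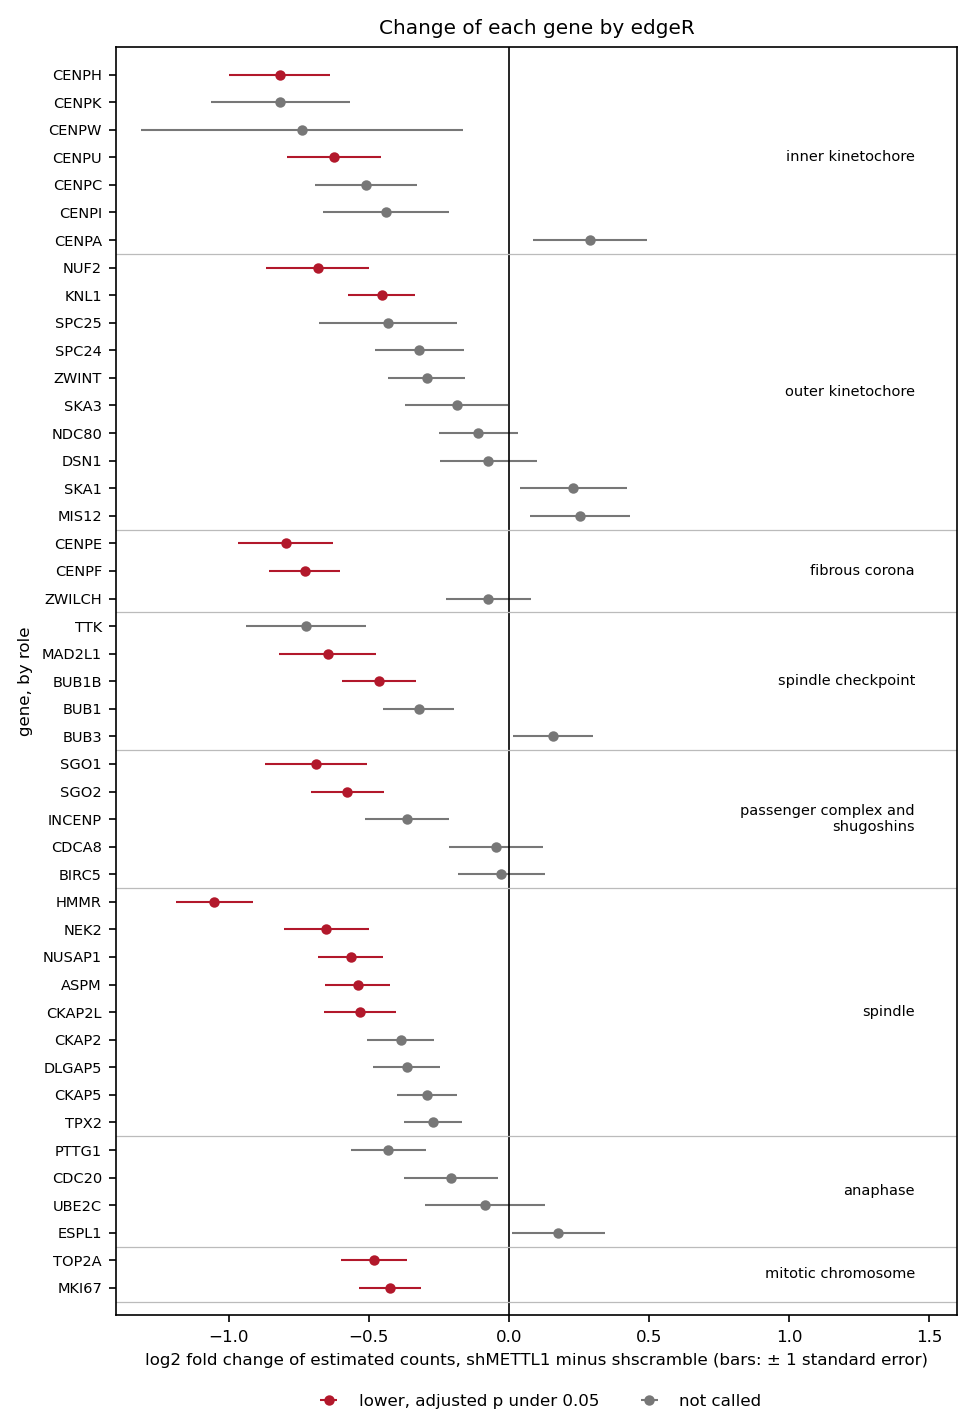
Log2 fold change of each of the 45 genes, shMETTL1 minus shscramble, by edgeR on estimated counts, with bars of 1 standard error and genes grouped by role; 3 libraries per group. Points left of 0 are lower in shMETTL1 cells: 40 of 45 genes lie there, and none of the 5 genes right of 0 passed the test.

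In the inner kinetochore, CENPH and CENPU fell and the histone variant CENPA did not. CENPH, a subunit of the constitutive centromere network that sits on CENPA chromatin, had 97.9, 115 and 79.2 estimated counts in shMETTL1 libraries, against 136, 172 and 189.9 in shscramble libraries. The groups did not overlap, and the lowest library was shMETTL1 replicate 3 (log2 fold change -0.82 ± 0.18 SE, edgeR adjusted p = 0.011). CENPU, which docks the kinase PLK1 at the centromere, had 190.5, 128 and 149 counts in shMETTL1 libraries, against 256, 226 and 212 in shscramble libraries. Again every shMETTL1 library was below every shscramble library (-0.62 ± 0.17 SE, edgeR adjusted p = 0.0324). CENPK, a binding partner of CENPH, was of equal size but missed the threshold (-0.82 ± 0.25 SE, edgeR adjusted p = 0.058), and so did CENPC, which ties CENPA chromatin to the outer kinetochore (-0.51 ± 0.18 SE, 0.106), and CENPI (-0.44 ± 0.22 SE, 0.26). CENPW, a histone-fold protein with only 2.6 to 19.0 counts per library, could not be placed (-0.74 ± 0.58 SE). CENPA, the histone H3 variant that marks the centromere, had 97.9, 104 and 89.0 counts in shMETTL1 libraries, against 55.1, 88.6 and 86.6 in shscramble libraries. It was the 1 gene whose shMETTL1 libraries all lay above, with a wide margin only over shscramble replicate 1, and it did not pass the test (0.29 ± 0.20 SE, edgeR adjusted p = 0.432).

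In the outer kinetochore, 2 of 10 genes fell. NUF2, a subunit of the NDC80 complex that binds microtubules, had 162, 157 and 184 estimated counts in shMETTL1 libraries, against 307, 191 and 276 in shscramble libraries. The groups did not overlap, but shscramble replicate 2 lay close to the knockdown libraries (-0.68 ± 0.18 SE, edgeR adjusted p = 0.0354). KNL1, the scaffold on which the BUB proteins assemble, had 366, 408 and 444 counts in shMETTL1 libraries, against 552, 501 and 557 in shscramble libraries. All 3 shMETTL1 libraries were below all 3 shscramble libraries (-0.45 ± 0.12 SE, edgeR adjusted p = 0.0309). The partners of NUF2 in the same complex did not pass the test, with log2 fold changes of -0.11 ± 0.14 SE for NDC80, -0.32 ± 0.16 SE for SPC24 and -0.43 ± 0.25 SE for SPC25. Neither did the MIS12 complex subunits MIS12 (0.25 ± 0.18 SE) and DSN1 (-0.07 ± 0.17 SE), the KNL1 partner ZWINT (-0.29 ± 0.14 SE), or SKA1 (0.23 ± 0.19 SE) and SKA3 (-0.19 ± 0.18 SE), which hold kinetochores on shortening microtubules.

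In the fibrous corona, the outermost layer of unattached kinetochores, CENPE and CENPF fell and ZWILCH did not pass the test. CENPF, a very large coiled-coil protein that accumulates in G2, had 1624, 1815 and 1933 estimated counts in shMETTL1 libraries, against 3086, 2435 and 3049 in shscramble libraries. The groups were well apart, and CENPF was 1 of only 2 of the 45 genes that passed the test whichever library was left out (-0.73 ± 0.13 SE, edgeR adjusted p = 0.0018, at most 0.0323 with a library left out). CENPE, the plus-end kinesin that moves chromosomes to the metaphase plate, had 423, 472 and 591 counts in shMETTL1 libraries, against 938, 651 and 893 in shscramble libraries. The groups did not overlap, with shscramble replicate 2 nearest to the knockdown libraries (-0.80 ± 0.17 SE, edgeR adjusted p = 0.0136). ZWILCH, a subunit of the complex that brings dynein to kinetochores, was -0.07 ± 0.15 SE on the log2 scale.

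Among the checkpoint genes, MAD2L1 and BUB1B fell. MAD2L1, which encodes MAD2, the inhibitor of CDC20 made at unattached kinetochores, had 192, 138 and 185 estimated counts in shMETTL1 libraries, against 247, 219.7 and 309.9 in shscramble libraries. BUB1B, which encodes BUBR1, the partner of MAD2 in the mitotic checkpoint complex, had 227, 226 and 251 counts in shMETTL1 libraries, against 272, 321 and 347 in shscramble libraries. Neither gene's groups overlapped, and the log2 fold changes were -0.65 ± 0.17 SE for MAD2L1 (edgeR adjusted p = 0.0318) and -0.46 ± 0.13 SE for BUB1B (edgeR adjusted p = 0.0462). The kinase TTK, or MPS1, which starts the signal, had 91.1, 66.6 and 78.2 counts in shMETTL1 libraries, against 159, 111 and 105 in shscramble libraries. Its groups did not overlap either, but it missed the threshold (-0.72 ± 0.21 SE, edgeR adjusted p = 0.0512). The kinase BUB1 was -0.32 ± 0.13 SE (adjusted p = 0.14), and BUB3, the adaptor that binds both BUB kinases, was 0.16 ± 0.14 SE.

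Of the passenger complex and the shugoshins, which protect centromeric cohesion, the shugoshins fell and no passenger subunit passed the test. SGO1 had 135, 145 and 196 estimated counts in shMETTL1 libraries, against 291, 207 and 241 in shscramble libraries. SGO2 had 193, 215 and 211 counts in shMETTL1 libraries, against 289.7, 300.5 and 302.5 in shscramble libraries. The groups overlapped for neither gene, and the SGO2 libraries were tight within each group. The log2 fold changes were -0.69 ± 0.18 SE for SGO1 (edgeR adjusted p = 0.0324) and -0.58 ± 0.13 SE for SGO2 (edgeR adjusted p = 0.0122). The passenger subunits, which place the kinase Aurora B, were -0.36 ± 0.15 SE for the scaffold INCENP, -0.03 ± 0.16 SE for BIRC5 (survivin) and -0.05 ± 0.17 SE for CDCA8 (borealin).

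Among the 9 spindle genes, 5 fell, and HMMR changed most of all 45 genes. HMMR, a receptor for hyaluronan that also binds spindle microtubules near the poles, had 356, 369 and 354 estimated counts in shMETTL1 libraries, against 809, 579 and 760.4 in shscramble libraries. The 3 shMETTL1 libraries were nearly equal and far below every shscramble library (-1.05 ± 0.14 SE, 48.3% of shscramble, edgeR adjusted p = 0.000183, at most 0.00572 with a library left out). NUSAP1, which bundles microtubules around chromosomes, had 572.5, 529.7 and 531 counts in shMETTL1 libraries, against 814, 703 and 812 in shscramble libraries. ASPM, which focuses spindle poles and is mutated in microcephaly, had 563, 520.2 and 526 counts in shMETTL1 libraries, against 792.5, 676.5 and 785 in shscramble libraries. In both genes the groups were apart and shscramble replicate 2 was the lowest of its group (-0.56 ± 0.12 SE and edgeR adjusted p = 0.00674 for NUSAP1, -0.54 ± 0.12 SE and 0.00964 for ASPM).

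NEK2, the kinase that splits the centrosomes before mitosis, had 199, 184 and 159.5 estimated counts in shMETTL1 libraries, against 303, 240.4 and 278 in shscramble libraries. CKAP2L, a spindle pole protein, had 223, 243 and 247 counts in shMETTL1 libraries, against 341, 325 and 329 in shscramble libraries. Both fell with no overlap between groups (-0.65 ± 0.15 SE and edgeR adjusted p = 0.0151 for NEK2, -0.53 ± 0.13 SE and 0.0184 for CKAP2L). The other spindle genes lay below in every shMETTL1 library but missed the threshold with all 6 libraries: DLGAP5, which steadies kinetochore fibres, at -0.36 ± 0.12 SE (edgeR adjusted p = 0.0767), the microtubule stabiliser CKAP2 at -0.39 ± 0.12 SE (0.0596), the microtubule polymerase CKAP5 at -0.29 ± 0.11 SE (0.111) and TPX2, the activator of Aurora A, at -0.27 ± 0.10 SE (0.127). Without shscramble replicate 2 all 9 spindle genes were lower in edgeR, in a fit where 9.71% of all genes tested were lower.

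None of the 4 anaphase genes passed the test. PTTG1 encodes securin, the inhibitor of separase, and had 197, 209 and 219 estimated counts in shMETTL1 libraries, against 278, 288 and 248 in shscramble libraries. Its groups did not overlap, and it missed the threshold (-0.43 ± 0.13 SE, edgeR adjusted p = 0.0651). CDC20, the activator of the anaphase-promoting complex, had 171, 189 and 223 counts in shMETTL1 libraries, against 164, 228 and 261 in shscramble libraries, and its groups overlapped (-0.21 ± 0.17 SE). UBE2C, the ubiquitin-conjugating enzyme of that complex, was -0.08 ± 0.21 SE and ESPL1, separase itself, was 0.18 ± 0.16 SE. Both chromosome genes fell. MKI67, the proliferation marker Ki-67 that coats mitotic chromosomes, had 1938, 1903 and 2325 counts in shMETTL1 libraries, against 2579, 2633 and 2788 in shscramble libraries. TOP2A, the topoisomerase that untangles sister chromatids, had 1082.5, 968.5 and 914 counts in shMETTL1 libraries, against 1383, 1186 and 1414 in shscramble libraries. Neither gene's groups overlapped, and the changes were among the smallest of the genes that fell (-0.42 ± 0.11 SE and edgeR adjusted p = 0.0295 for MKI67, -0.48 ± 0.12 SE and 0.0208 for TOP2A).

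**Figure D4:**
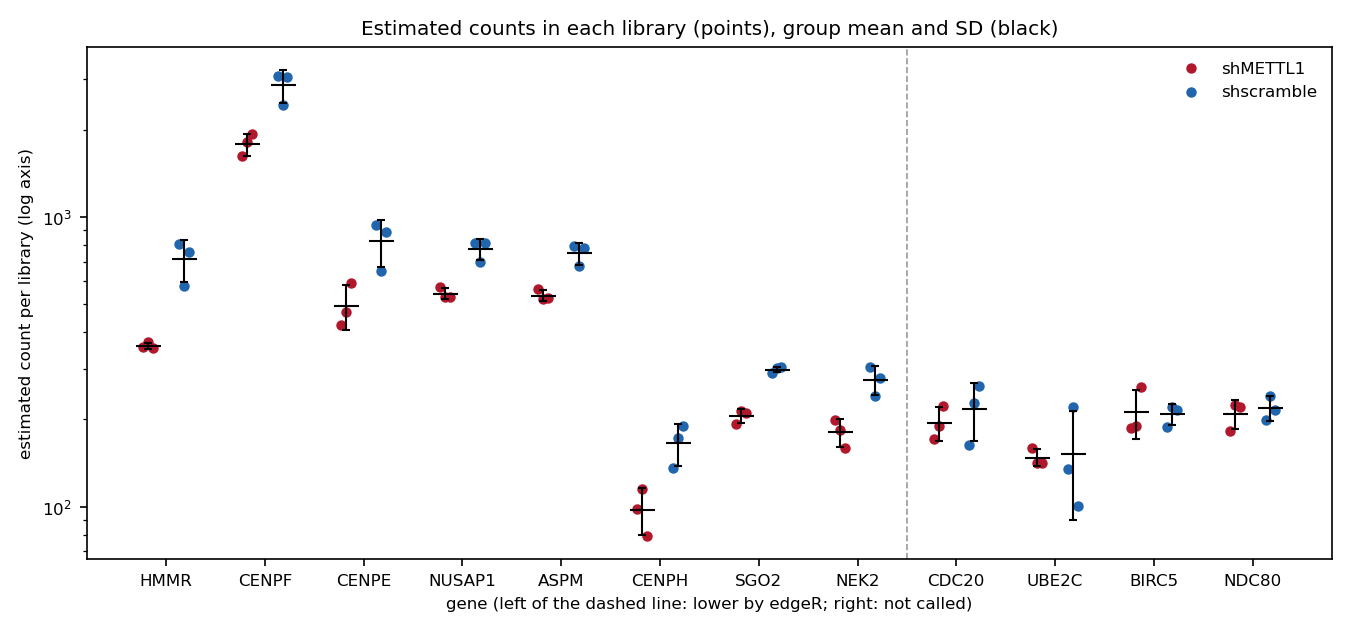
Estimated count in each library (points, log axis) with the group mean and SD in black, n = 3 libraries per group, for 8 genes that fell (left of the dashed line) and 4 that did not pass the test (right), picked for display after their values were seen. In the 8 genes on the left the shMETTL1 points lie below all shscramble points, and in CDC20, UBE2C, BIRC5 and NDC80 the groups overlap.

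Which of the 17 genes passed the test depended on the libraries in the fit. When 1 library was left out and the edgeR test run again, CENPF and HMMR were the 2 genes called in all 6 fits. Without shMETTL1 replicate 1, 6 of the 17 calls stood, the others being CENPU, ASPM, NUSAP1 and NEK2. Without shMETTL1 replicate 2, 3 stood, CENPH being the other. Without shMETTL1 replicate 3, 10 stood, with KNL1, CENPE, SGO1, SGO2, ASPM, NUSAP1, CKAP2L and MKI67. Without shscramble replicate 1, 7 stood, with CENPH, CENPE, SGO2, ASPM and NUSAP1. All 17 stood without shscramble replicate 2, and 2 without shscramble replicate 3. NUF2, BUB1B, MAD2L1 and TOP2A passed only without shscramble replicate 2. The adjusted p of the calls that were lost lay between 0.0502 and 0.219, and none of the 17 log2 fold changes turned positive. Calls over all genes changed with the fit too, and 436 of 11764 genes tested were lower with all 6 libraries. Leaving out shMETTL1 replicates 1, 2 and 3 in turn gave 177 of 11778, 179 of 11766 and 202 of 11776 lower. Leaving out shscramble replicates 1, 2 and 3 in turn gave 240 of 11753, 1141 of 11747 and 177 of 11753 lower.

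FPKM placed the genes by level per length. The highest means over the 6 libraries were 204.7 FPKM for PTTG1, 130 for NUSAP1, 108 for CENPF and 88.5 for TOP2A, and the lowest were 5.48 for CENPI and 5.79 for CENPW. Summed over the 45 genes, FPKM was 1521, 1390.4 and 1580 in shMETTL1 libraries, against 2047, 1854 and 2022 in shscramble libraries, without overlap. HMMR averaged 51.2 ± 0.65 FPKM in shMETTL1 cells and 105 ± 27.1 in shscramble cells (SD, n = 3 each), and CENPF averaged 72.8 ± 22.4 and 143 ± 32.8 FPKM.

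No gene of the 45 passed the test on FPKM. In limma on log2(FPKM + 0.5), 0 of 45 were called in either direction, where 0.074% of 12156 genes tested were lower and 0.0494% higher, and the lowest adjusted p was 0.0885 for HMMR. At an unadjusted p under 0.05, limma had 19 of the 45 lower, against 6.8% of the genes tested, and 1 higher, ESPL1, against 7.37%. The median log2 fold change on FPKM was -0.38, and all 17 genes called on counts were negative on FPKM. In 13 of the 17 the FPKM groups did not overlap either, while they overlapped in BUB1B, MAD2L1, NUSAP1 and TOP2A. These 17 had been picked as lower on counts from the same libraries, so their sign and separation on FPKM are no separate support. The share of all genes with separate FPKM groups was not measured. Without shscramble replicate 2, limma called 2 of the 45 lower, HMMR and KNL1, with 0.725% of genes tested lower and 0.832% higher.

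In 4 genes the log2 fold changes by FPKM and by count differed by more than 0.5. The changes were -0.96 by FPKM and -0.45 by count for KNL1, -0.21 and -0.82 for CENPK, 0.26 and -0.36 for INCENP, and 0.82 and 0.18 for ESPL1. The count per unit of FPKM, which rises with the transcript length that was assumed, was 29.7, 33.6 and 33.1 for KNL1 in shMETTL1 libraries, against 17.4, 26.7 and 21.1 in shscramble libraries. For ESPL1 it was 9.05, 11.8 and 10.998 in shMETTL1 libraries, against 21.6, 15.8 and 12.6 in shscramble libraries. The groups did not overlap in either gene. Nor did they in CENPK (2.4 to 2.81 in shMETTL1 against 3.18 to 5.03 in shscramble libraries) or INCENP (6.21 to 7.37 against 8.09 to 12.9). These 4 genes were picked for their gap between FPKM and count, so a split of this kind follows from the choice. The median over genes was 8.26 to 8.68 in all 6 libraries. Whether isoform use or the assignment of fragments to isoforms moved the count per FPKM was not tested.

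**Figure D5:**
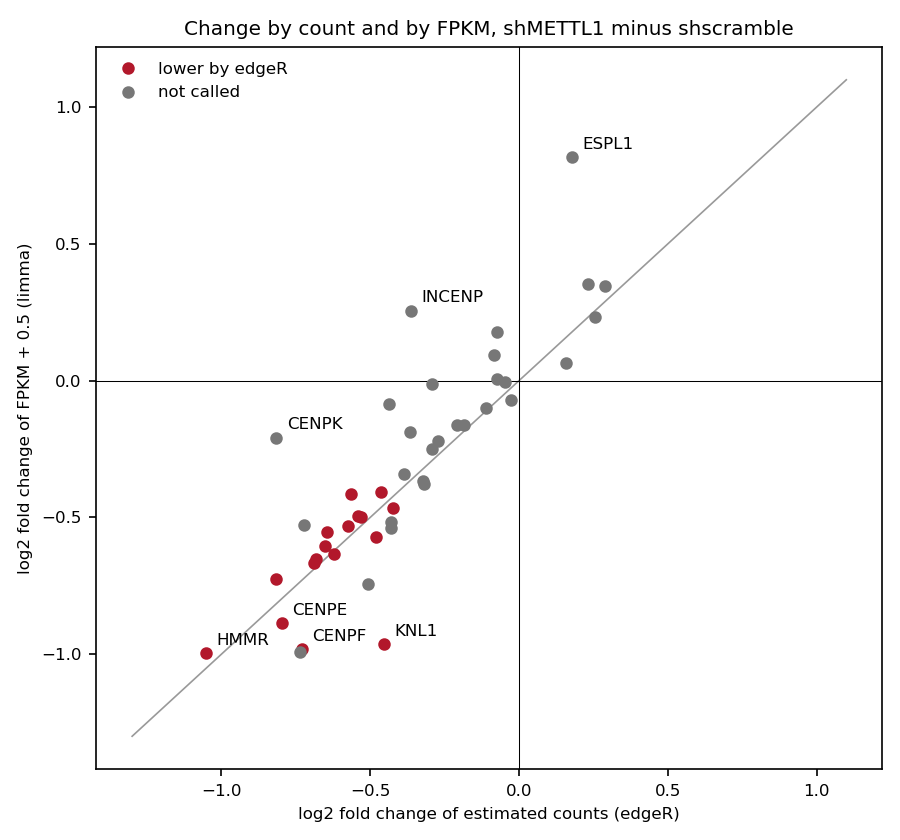
Change of each gene on the log2 scale, shMETTL1 minus shscramble, for the estimated count by edgeR (horizontal axis) and of FPKM + 0.5 by limma (vertical axis) for each of the 45 genes. Most genes lie in the lower left part of the plot, where both measures are lower in shMETTL1 cells; KNL1, CENPK, INCENP and ESPL1 are more than 0.5 apart.

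Some of these genes share sequence with others. Exons of 13 of the 45 overlap those of another gene in GENCODE v29, on the same strand in CENPA, BUB1B and NUSAP1 and on the opposite strand in the others. The largest overlap was that of NUSAP1, 62.2% of its exon bases, with AC087721.2. That gene was not among the deposited genes, nor were the partners of MAD2L1, SGO1 and HMMR. Whether the counting used strand, which bears on the opposite-strand overlaps, was not given in the sources used here. For 13 genes, copies or pseudogenes are annotated by name, 20 in all, of which only PTTG2, a copy of PTTG1, was in the tables. Sequence identity was not measured, and counts of these 13 genes are uncertain where the counting could split fragments between copies.

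Other genes of the mitotic machinery were followed in 5 lists of textbook members, to be read against the 3.71% of all genes tested that were lower. Of 12 mitotic kinesins 4 fell (33.3%), with a median log2 fold change of -0.43: KIF22 (-0.52, edgeR adjusted p = 0.0087), KIF14 (-0.61, 0.00949), KIF15 (-0.66, 0.0116) and KIF11 (-0.41, 0.0456), motors of chromosome arms, the midbody and the bipolar spindle. Of 30 other kinetochore and centromere genes 3 fell (median -0.08), among them KNTC1, a partner of ZWILCH (-0.75, edgeR adjusted p = 0.000535), and CENPL (-1.07, 0.00416). Of 28 other spindle and centrosome genes 3 fell (10.7%, median -0.19): the tubulin-binding STMN1 (-0.66, edgeR adjusted p = 0.00518), the spindle protein SPAG5 (-0.54, 0.00715) and the centriole protein CEP152 (-0.72, 0.0188). CEP152 had the opposite direction on FPKM (0.40, limma adjusted p = 0.397), where its groups overlapped, so its direction depends on the measure. KNTC1, CENPL and STMN1 passed whichever library was left out. The other genes named here lost their call, at adjusted p of 0.0503 to 0.178, without shMETTL1 replicate 1, shMETTL1 replicate 2 or shscramble replicate 3, and KIF11 and CEP152 also without shscramble replicate 1, while KIF11 did so without shMETTL1 replicate 3 as well.

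None of 17 genes of the anaphase-promoting complex and its regulators passed the test (median -0.01, at a p under 0.05 left unadjusted, edgeR had 2 lower and 0 higher, where 11.9% of all genes tested were lower), and the smallest p belonged to UBE2S (-0.37, edgeR adjusted p = 0.104). None of 13 mitotic kinases and cyclins passed (median -0.15, 1 lower at an unadjusted p under 0.05), among them CDK1, the kinase that drives entry into mitosis (-0.27, edgeR adjusted p = 0.165). Limma on FPKM called none of the genes in these 5 lists. The differences between lists were not tested.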

How the data were processed

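RNA was sequenced as paired reads from 3 shMETTL1 and 3 shscramble libraries of LNCaP-AI cells. The tools listed in the submitters' processing notes are HISAT2 2.0.4, cutadapt 1.9.3, Cuffdiff and Cufflinks, and the build is hg19; what each tool did is not given in the sources used here. For each library the authors deposited 1 FPKM value and 1 estimated count per gene. The authors scaled FPKM to transcript length and library depth, and most of the deposited estimated counts are not whole numbers. Between 89.6% and 90.9% of the counts above 0 in a library were whole multiples of 1 step within 0.01 fragments, with 0.868 to 1.36 counts per fragment, so each library had been scaled by 1 factor. Dividing by it gave 2650766 to 4085354 fragments per library, a ratio of 1.54, which limits precision for genes with few counts.

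Estimated counts were rounded and tested with edgeR 4.0.16 in R 4.3.3 (TMM scaling, robust quasi-likelihood test, two-sided) between the groups, with no covariate, over 11764 genes with a mean rounded count of at least 5. P-values were adjusted by the Benjamini-Hochberg method over all of them, with calls made below an adjusted p of 0.05. The SE of a log2 fold change was its size divided by the square root of the F statistic. All 45 genes passed the filter, which used the mean over both groups. Alternatives were DESeq2 1.42.0, limma 3.58.1 on log2(FPKM + 0.5) where the mean FPKM was 0.5 or more, limma on log2 CPM (prior count 2), other scalings, filters and pseudocounts, a replicate block, and each library left out. Tests on the recovered fragments, and limma on FPKM without shscramble replicate 2, were chosen after seeing the data. FPKM fold changes on the log2 scale understate the change of low genes. The model scripts were tested on simulated data.

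Gene symbols were given for 19434 of 20308 genes (95.7%). The 45 genes, their roles and the other lists were chosen with earlier results of these data known. Per-library values were given for every gene called and, in a role with fewer than 2 called, for the genes with the smallest p; those of CENPA and TTK were added after their values were seen. In the other lists up to 3 genes of smallest p were named, and KIF11 was added because it passed the test. The values of 1 gene of these lists are not reported here. Promoters came from RefSeq, GRCh38.p14, and no coordinate was converted between builds.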

Additional observations from a re-analysis of the deposited data

How the results depend on the processing

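The number of the 45 genes that were lower was 17 with all 6 libraries and TMM scaling, 17 with median-ratio scaling, with DESeq2 and with limma on log2 CPM, 16 with library totals, 19 without a filter and 18 with a mean count of at least 10. On recovered fragments it was 17 in edgeR and 16 in DESeq2. It was 0 in limma on log2(FPKM + 0.5), 0 on log2(FPKM + 0.1) and 0 on log2(FPKM + 1), and 2 in limma on FPKM without shscramble replicate 2. In edgeR it was 11 when a gene needed a fold change above 1.5 and a p under 0.05 left unadjusted. The cause of the gap between counts and FPKM was not tested. With 1 library left out in turn it ran between 2, without shscramble replicate 3, and 24, without shscramble replicate 2. No gene of the 45 was called higher under any of these settings. The change of threshold gives no value for the median. The median log2 fold change of the 45 genes was -0.43, ran between -0.44 and -0.38 with a library left out, and was -0.37 on log2(FPKM + 1). Over all genes, edgeR called 436 lower and 319 higher, against 9 and 6 for limma on FPKM, 1141 and 1029 without shscramble replicate 2, and 177 and 126 without shscramble replicate 3. The number lower over all genes tested was 421 of 11764 with median-ratio scaling, 419 with limma on log2 CPM and 446 with DESeq2. Library totals gave 401 of 11764, no filter 604 of 14908 and a mean count of at least 10 gave 456 of 11217. Recovered fragments gave 404 of 11765 in edgeR and 423 in DESeq2.

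Replicate numbers are shared by the groups in the labels. The correlations of same-numbered deviations from the group means were 0.033, 0.106 and -0.03. Those of libraries with different numbers ran between -0.082 and 0.055. With 3 libraries per group these values cannot settle whether the libraries were paired. With the replicate block 20 of the 45 genes were lower, TTK, CENPK and CENPC being added, where 5.02% of all genes were lower. None of the 45 was higher and their median stayed at -0.43. With the block on recovered fragments 19 of the 45 were lower, where 4.67% of all genes were lower.

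None of the 17 genes of the 45 that fell changed direction under any setting, but CEP152, of the other spindle genes, was -0.72 on counts and 0.40 on FPKM. Among genes that did not pass the test, limma on FPKM with pseudocounts of 0.5, 0.1 and 1 turned the sign of DSN1 (0.0080, 0.0082 and 0.0077), ZWILCH (0.18, 0.18 and 0.17), INCENP (0.26, 0.26 and 0.25) and UBE2C (0.092, 0.094 and 0.091). Without shscramble replicate 2 it also gave CENPI 0.039, CENPK 0.12, NDC80 0.10, DSN1 0.12, SKA3 0.0011, ZWILCH 0.11, BUB3 -0.028, INCENP 0.45, CDCA8 0.10 and UBE2C 0.41. With a library left out, edgeR gave -0.20 to 0.043 for DSN1, -0.17 to 0.011 for ZWILCH, -0.21 to 0.060 for BIRC5, -0.13 to 0.088 for CDCA8 and -0.30 to 0.24 for UBE2C. Depth limits CENPW, with at most 19.0 counts in a library.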
